A study of Rattus norvegicus with 54 samples.

Results

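The MHC class II antigen presentation genes were described across the left ventricle of sham-operated, infarcted and cell sheet-treated rats. The 8 genes were chosen by name and matched by symbol in the 40319 genes listed in the deposited count tables, and all 8 were found. They are RT1-Ba and RT1-Bb, the alpha and beta chains of RT1-B (the rat counterpart of HLA-DQ), RT1-Da and RT1-Db1, those of RT1-D (the counterpart of HLA-DR), Cd74 (the invariant chain), RT1-DMa and RT1-DMb (the peptide exchange factor) and Ciita (the class II transactivator). All 8 passed the filter on low counts in every comparison described below. The animals are of an F344 strain, and their class II alleles may differ from the BN reference genome to which reads were aligned. RT1-Db1 has a near-identical neighbour, RT1-Db2, so reads could be split between the pair and the values of RT1-Db1 are uncertain to that extent. Neither effect was tested.

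The tissue came from 18 female athymic nude rats of the strain F344/NJcl-rnu/rnu, 8 weeks old, whose hearts were taken 1 week after surgery. Sham animals had surgery without infarction, the untreated MI group had the left anterior descending artery tied off permanently, and the cell sheet group had the same infarct and then received a bi-level sheet of human smooth muscle cells and endothelial progenitor cells on the epicardium. Each heart gave a piece of the anterior wall (infarct zone), the lateral wall (border zone) and the septum (remote zone), which makes 54 libraries of poly(A) RNA in 9 groups of 6. The labels call the replicates technical, while the study's methods describe 6 hearts per treatment, and the replicates were treated as separate animals on that ground. Elsewhere the study gives a range of animals per group that allows for fewer, and which heart would be missing is not given in the sources used here. Replicate pairs within a group differed by at least 7.97 times the counting noise (chi-square per degree of freedom), so none was a library deposited again, which does not tell animals from technical repeats. All 3 treatments used this strain, which lacks a thymus and forms few T cells. RNA of T cell markers still differed between hearts and was highest in sham replicate 5, as given below. Only rat genes were counted, and RNA of the human graft was not analysed separately. Whether reads of the graft were counted on rat genes was not tested.

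MHC class II molecules are pairs of an alpha and a beta chain that show peptides from the endosome to CD4 T cells. The invariant chain fills the groove while the pair is made and carries it to the endosome, where cathepsins degrade the chain and the DM pair exchanges the remaining fragment for an antigen peptide. Professional antigen-presenting cells (dendritic cells, B cells and activated macrophages) carry most class II, and interferon gamma can induce it in other cells, including endothelium. Transcription of the class II chains depends largely on CIITA, a coactivator that binds no DNA itself. CIITA docks on RFX, CREB and NF-Y at the X and Y boxes in front of the class II genes.

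Stretches of the promoters are printed because the class II genes are known for this shared arrangement and because the Cd74 window did not hold it in the form searched. RefSeq windows of GRCr8 that reach from 250 bases before to 50 bases after each start held 6 of the 8 members (RT1-DMb and Ciita had none). The letters searched were GNNAC, within the X box, followed on the gene's strand by ATTGG, the Y box read as a reversed CCAAT, 27 to 35 bases later counted from start to start. The search letters were set after these windows had been read. In each line the 2 motifs are in capitals, and each sequence lies upstream of its gene's start.
RT1-Ba, chr20:4576975-4577023, plus strand: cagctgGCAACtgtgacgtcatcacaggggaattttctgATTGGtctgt
RT1-Bb, chr20:4604170-4604217, minus strand: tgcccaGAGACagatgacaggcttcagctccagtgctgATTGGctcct
RT1-Da, chr20:4515327-4515375, plus strand: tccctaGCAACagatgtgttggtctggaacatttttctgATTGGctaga
RT1-Db1, chr20:4560233-4560280, minus strand: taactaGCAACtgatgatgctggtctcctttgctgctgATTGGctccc
RT1-DMa, chr20:4712390-4712438, minus strand: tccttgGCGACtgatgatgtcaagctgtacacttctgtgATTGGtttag

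The pair of motifs stood in 5 of the 6 members with a window and in 4 of the 4 other class II chains looked up (RT1-Db2, RT1-DOa, RT1-DOb and RT1-Ha), against 2.57% of all 33469 windows. With GCAAC in place of GNNAC the pair stood in 3 of the 6 members (RT1-Ba, RT1-Da and RT1-Db1) and in 4 of the 4 other chains, against 0.149% of all windows. Alone, ATTGG was in 37.5% and GCAAC in 35.1% of the windows on either strand, and GNNAC, which is short and loose, in 99.8%. In the 5 members the motifs were 32 or 33 bases apart, and ATTGG began between 43 and 80 bases before the start. The Cd74 window held GCAAC 70 bases before the start but no ATTGG on the gene's strand, and its CCAAT began 189 bases before the start, on the far side of GCAAC. Whether X-like letters stand beside that CCAAT was not looked for, so an arrangement in another orientation was not tested. Of the macrophage marker genes defined below, 0 of 8 with a window held the pair, and of the class I presentation genes 4 of 11 did. A match of letters is a description and not a site of binding.

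Levels below are CPM, gene counts relative to the library total after scaling with TMM factors over the 54 libraries, which held between 12699204 and 23397754 counts on genes. They compare 1 gene between libraries and not genes with each other, since the lengths of the counted transcripts were not used here. In bulk tissue, fewer class II-positive cells and less class II RNA per cell cannot be told apart. The 6 cardiomyocyte markers summed to 49104 to 58303 CPM in the sham libraries other than replicate 5, to 1773 to 32570 CPM in untreated MI and to 92.9 to 52818 CPM with the cell sheet, so that the cell sheet border zone of replicate 1 (92.9 CPM) held almost no cardiomyocyte RNA. Without TMM factors the median difference over all genes in the comparisons within zones moved by -0.07 to 0.33 on the log2 scale, furthest for cell sheet against sham in the infarct zone. The lung surfactant gene Sftpc, a sign of attached lung tissue, stood at 92.1 CPM in the untreated MI border zone of replicate 3, at 98.5 CPM in the cell sheet border zone of replicate 4 and at 30.6 CPM in the cell sheet infarct zone of replicate 6, and at most at 4.98 CPM elsewhere.

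Sham replicate 5 stood apart from the other 5 sham hearts in all 3 zones, and it had the highest value of each of the 8 genes in every zone. Its Cd74 was at 5768 CPM (infarct zone), 6577 CPM (border zone) and 6948 CPM (remote zone), while the other sham libraries lay between 467 and 617 CPM. Ciita was at 256, 291 and 230 CPM in the same order, which was 48.1, 65.9 and 62.8 times the median of the other shams. The chains RT1-Ba, RT1-Bb, RT1-Da and RT1-Db1 were 35.5 to 46.7 times that median, RT1-DMa 19.6 to 24.2 times and RT1-DMb 6.64 to 9.64 times. The same heart held 93.9 to 124 CPM of the T cell receptor subunit Cd3e, against at most 3.43 CPM in the other shams, and 5.42 to 10.1 CPM of interferon gamma (Ifng), against at most 0.319 CPM. Its cardiomyocyte sum was 15728 to 20932 CPM, and its 8 T cell markers summed to 343 to 532 CPM against 2.06 to 15.3 CPM in the other shams. Why this heart differs was not tested. Counts of genes called against sham are therefore given with and without it, and values of single genes against sham are given without it.

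**Figure D1:**
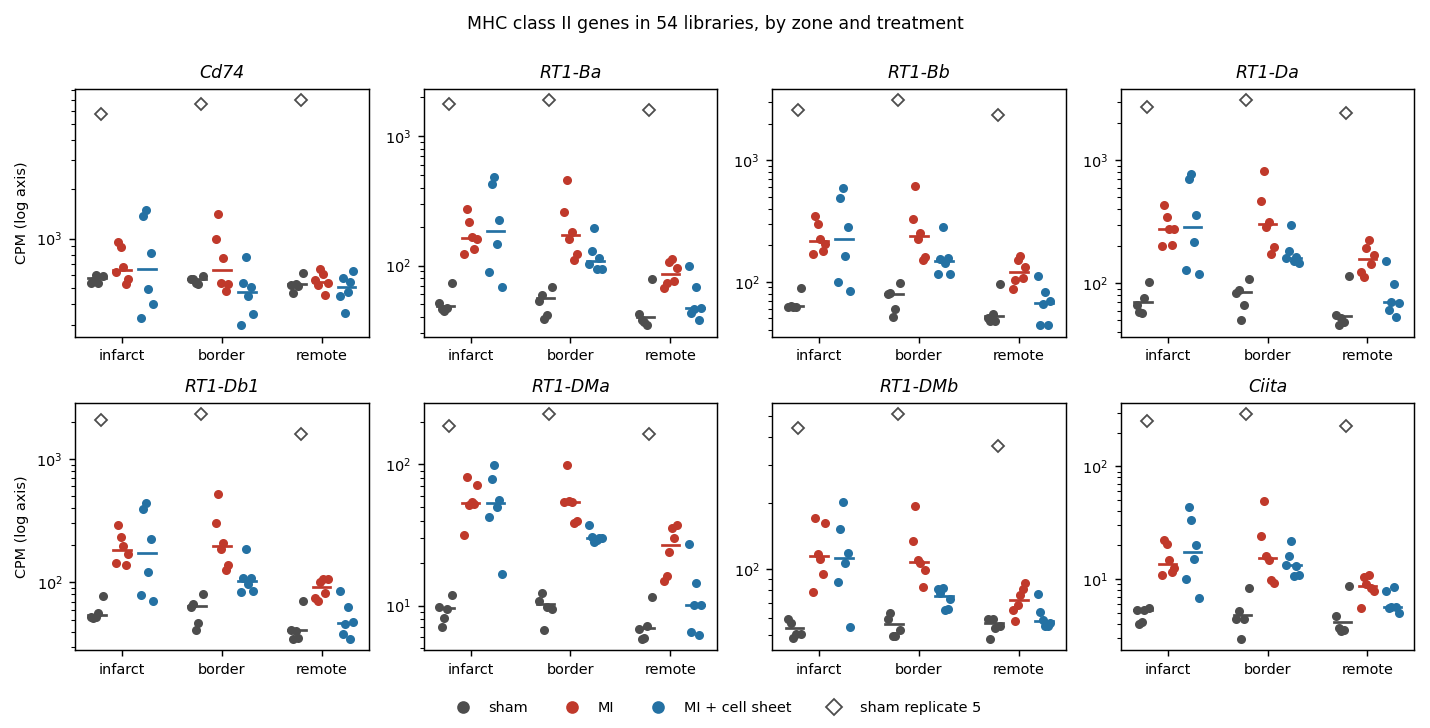
CPM (log axis) of the 8 genes in each library, grouped by zone and coloured by treatment, with a bar at the median of the 6 libraries. Open diamonds are sham replicate 5, at 5768 to 6948 CPM for Cd74 against 467 to 617 CPM in the other sham libraries.

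The comparison of untreated MI with sham asked how the infarct changes the tissue, and with sham replicate 5 left out 7 of the 8 members were higher in MI in each of the 3 zones. Cd74 was the member that did not pass in any zone. In the infarct zone the median difference over the 8 members was 1.75 on the log2 scale, against 0.04 over all genes tested. Of all genes tested, 34.1%, 31.9% and 23.7% were called higher in the infarct, border and remote zones. With all 12 libraries 0 of 8 members were called in any zone by edgeR's quasi-likelihood test. DESeq2 also called 0, but a member to which it gave no adjusted p counted as not called. DESeq2 can withhold p where 1 library is extreme, so its 0 may stand for members not tested. By edgeR 0 (infarct and border) and 2 (remote) members had an unadjusted p under 0.05, and the estimates ran from -2.31 to 0.53. Of all genes tested, 8933 of 15758 (infarct), 7980 of 15641 (border) and 5998 of 15294 (remote) had such a p. In the infarct, border and remote zones 6, 7 and 8 of the 8 estimates were then negative, where all 8 were positive without sham replicate 5, so the direction of these differences turns on that heart. In those fits 49.9%, 41.7% and 25.8% of all genes were called in the infarct, border and remote zones.

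Among the 4 classical chains, RT1-Da had the largest estimate in each zone. It was at 57.6, 66.1 and 102 CPM (lowest, median and highest) in the 5 sham infarct zones and at 200, 276 and 438 CPM in the 6 MI infarct zones. The groups did not overlap, and the difference was 2.00 ± 0.23 on the log2 scale (SE, n = 6 and 5, edgeR adjusted p = 4.125e-05), a 4.01-fold rise. RT1-Db1, its partner, went from 51.8 to 77.9 CPM in sham to 140 to 293 CPM in MI, a difference of 1.75 ± 0.21 (SE, edgeR adjusted p = 4.675e-05). In the border zone the pair differed by 2.26 and 2.06, and in the remote zone by 1.35 and 1.02, all past the threshold.

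The RT1-B chains rose as well. RT1-Ba lay between 44.8 and 73.3 CPM in the sham infarct zones and between 122 and 274 CPM in those of MI, a difference of 1.76 ± 0.22 (SE). RT1-Bb lay between 62.3 and 89.0 CPM and between 169 and 346 CPM, a difference of 1.79 ± 0.20. Both had edgeR adjusted p under the threshold in the border (2.06 and 1.97) and the remote zone (0.95 and 1.08). Sham and MI libraries did not overlap in infarct and border, while in the remote zone the highest sham library (replicate 6, 78.3 CPM of RT1-Ba) stood above the lowest MI library (67.0 CPM).

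RT1-DMa, the alpha chain of the exchange factor, had the largest estimate of the 8 genes in all 3 zones. It stood at 7.05, 9.48 and 11.8 CPM in the sham infarct zones and at 31.5, 53.3 and 80.9 CPM in the MI infarct zones, a 6.12-fold difference (2.62 ± 0.23, edgeR adjusted p = 1.508e-05). In the remote zone it was still 3.57-fold higher, and no MI library fell among the sham libraries in any zone. RT1-DMb lay at 48.3 to 59.4 CPM in the sham infarct zones and at 78.9 to 171 CPM in those of MI, a difference of 1.19 ± 0.18. Its border zone difference was 1.15 and that of the remote zone 0.40, both past the threshold.

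Ciita, the class II transactivator, also rose. Its infarct zone values were 4.00, 5.32 and 5.51 CPM in sham and 10.8, 13.6 and 22.3 CPM in MI, a difference of 1.66 ± 0.22 (edgeR adjusted p = 8.247e-05). The border zone difference was 2.03 ± 0.45 and that of the remote zone 0.84 ± 0.26, both past the threshold.

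Cd74, the invariant chain, had the smallest estimate in each zone. In the infarct zone it was at 539, 549 and 604 CPM in sham and at 528, 648 and 952 CPM in MI, so that the groups overlapped and the difference was 0.31 (95% interval -0.06 to 0.69, edgeR adjusted p = 0.1177). The border zone difference was 0.50 (interval -0.10 to 1.10) and that of the remote zone 0.07 (interval -0.17 to 0.30). In the infarct zone the upper bound for Cd74 lay below the lower bounds of the intervals of the 7 other members. Without sham replicate 5 the groups did not overlap for 7, 7 and 2 members in the infarct, border and remote zones, where 23.4%, 21.3% and 13.7% of all genes were higher without overlap.

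**Figure D2:**
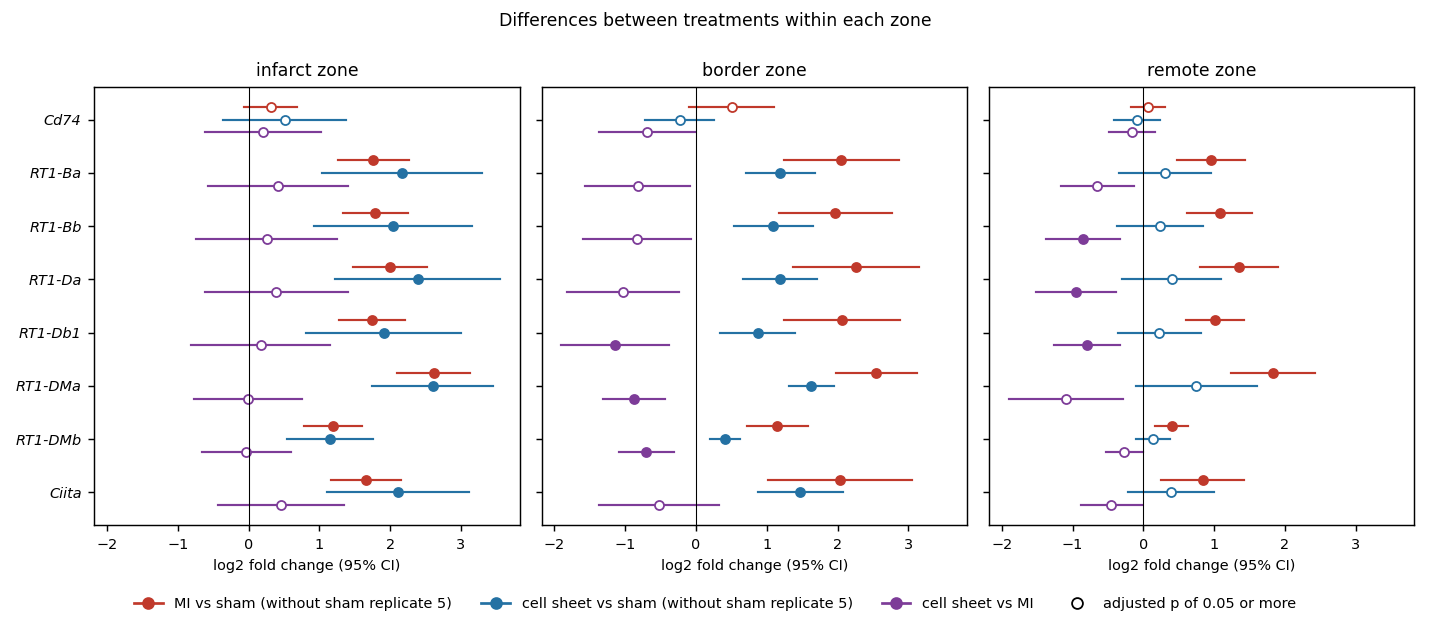
Log2 fold changes with 95% intervals of the 8 genes in each zone, for MI against sham and cell sheet against sham (both without sham replicate 5) and for cell sheet against MI, with open circles where the adjusted p was 0.05 or more. In MI against sham 7 genes stand to the right of 0 with filled circles in each zone, and Cd74 is open throughout.

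The ratio of Cd74 CPM to RT1-Da CPM, which compares libraries and depends on transcript length in its absolute size, did not overlap between the 5 shams and untreated MI. It was 5.84 to 10.5 in the infarct zones of the 5 shams and 2.06 to 3.11 in those of MI, 5.50 to 10.5 and 1.72 to 2.75 in the border zones, and 5.42 to 10.6 and 2.72 to 4.69 in the remote zones. Sham replicate 5, with its high class II, had ratios of 2.12, 2.14 and 2.87, within the range of the MI libraries of each zone. Cell sheet libraries had 1.94 to 3.39 in the infarct zone and 1.85 to 3.09 in the border zone, and 2.96 to 10.1 in the remote zone. The ratio was looked at after the levels had been seen, and it is a description with no test.

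**Figure D3:**
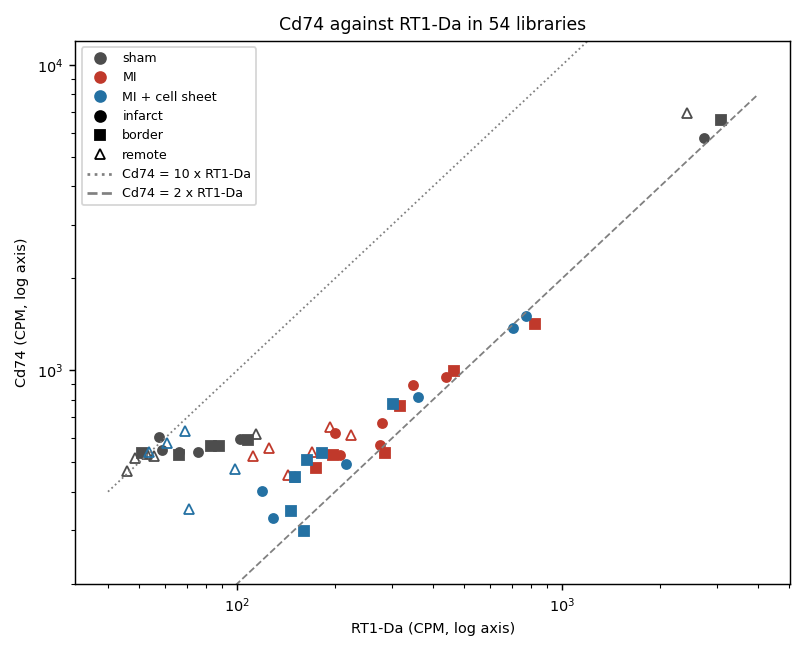
Cd74 against RT1-Da, both in CPM on log axes, in the 54 libraries, with treatment by colour and zone by symbol, and lines where Cd74 is 10 and 2 times RT1-Da. Sham libraries other than replicate 5 have 5.42 to 10.6 times as much Cd74 as RT1-Da, and MI libraries 1.72 to 4.69 times.

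Relative to 10 macrophage markers (Adgre1, Aif1, C1qa, C1qb, C1qc, Cd163, Cd68, Csf1r, Mertk and Mrc1), Cd74 was lower in MI than in sham. The log2 of Cd74 minus the mean log2 of the markers was 4.40 ± 0.49 in sham and 2.503 ± 0.45 in MI infarct zones (SD, n = 6 and 6), a difference of -1.90. In the border and remote zones the difference was -1.92 and -1.66. In each zone all 6 MI libraries lay below all 6 sham libraries, and the exact permutation p was 0.002165, 2-sided and the smallest this design can give (adjusted over 9 comparisons 0.00487). The ratio restates the values of Cd74 and of the markers, given separately above and below. The list was chosen with earlier results known, so this p is no separate support. Without sham replicate 5 the differences were -1.75, -1.73 and -1.44. Cell sheet hearts were also below sham in the infarct zone (-2.21) and the border zone (-2.502, adjusted p = 0.007792 by the exact permutation test), while the remote zone difference of -0.86 was not past the threshold (exact permutation adjusted p = 0.09416). Between cell sheet and untreated MI the differences of -0.31, -0.58 and 0.80 were not past it either, with adjusted p of 0.3896, 0.358 and 0.09462 by the exact permutation test. Without sham replicate 5 the cell sheet hearts differed from sham by -2.06 (infarct), -2.32 (border) and -0.64 (remote), with exact permutation adjusted p of 0.00487, 0.01169 and 0.1586.

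The comparison of the cell sheet with untreated MI asked what the graft changes in the infarcted heart. In the infarct zone 0 of 8 members were called by edgeR or DESeq2 and 0 had an unadjusted p under 0.05. Of all 16196 genes edgeR called 0% there, 1341 had an unadjusted p under 0.05 by edgeR, and DESeq2 called 85 genes. The estimates ran from -0.03 to 0.46, and the 95% interval of RT1-Da was -0.62 to 1.40. RT1-Da was at 119, 288 and 775 CPM in cell sheet libraries (lowest, median and highest) and at 200, 276 and 438 CPM in MI libraries. Replicates 2 and 3 held the highest cell sheet values and replicates 1 and 6 the lowest, on both sides of all MI libraries.

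In the border zone 3 of the 8 members were lower with the cell sheet than in untreated MI, where 9.48% of all genes were lower. RT1-DMb was at 65.4, 75.6 and 82.1 CPM with the cell sheet and at 83.2, 108.2 and 194 CPM without it. The groups did not overlap, and the difference was -0.70 ± 0.17 (SE, n = 6 and 6, edgeR adjusted p = 0.01618). RT1-DMa was at 28.3, 30.1 and 37.2 CPM with the cell sheet and at 38.6, 54.4 and 99.4 CPM without it, also without overlap, at -0.88 ± 0.20 (edgeR adjusted p = 0.01028). Of all genes, 5.38% were lower without overlap.

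Among the chains, RT1-Db1 passed the threshold in the border zone at -1.15 ± 0.34 (edgeR adjusted p = 0.03605), with 83.4, 103 and 187 CPM against 127, 198 and 523 CPM. With 1 library left out at a time RT1-Db1 no longer passed in 8 of 12 fits, with edgeR adjusted p up to 0.07946. Its estimate was nearest 0, at -0.78, without MI replicate 2. RT1-Da (-1.03, adjusted p = 0.06393), RT1-Bb (-0.83, 0.113), RT1-Ba (-0.82, 0.1089), Cd74 (-0.69, 0.1354) and Ciita (-0.52, 0.3745) were not past the threshold by edgeR. An unadjusted p under 0.05 by edgeR was found for 7 of the 8 members and for 5279 of all 16272 genes. In MI border zones replicate 2 held the highest value of all 8 genes, and in the cell sheet group replicate 3 held that of 7 genes. Lung RNA was present in 1 library of each group. Without both libraries the count was 1, without cell sheet replicate 3 it was 5, and in a single fit of all 9 groups it was 0. Of all genes, 2208 were called in either direction without both libraries and 3127 in the single fit. DESeq2 called 4 members. How many of all genes were called by DESeq2, or without cell sheet replicate 3, is not reported here. The counts of 4 and 5 therefore cannot be set against the share of all genes.

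In the remote zone 3 of the 8 members were lower with the cell sheet, all of them chains, where 6.79% of all genes were lower. RT1-Da was at 53.6, 70.2 and 151 CPM against 112, 157 and 225 CPM in MI, at -0.96 ± 0.25 (edgeR adjusted p = 0.0252). RT1-Bb differed by -0.85 ± 0.23 (edgeR adjusted p = 0.02829) and RT1-Db1 by -0.80 ± 0.21 (edgeR adjusted p = 0.02412). RT1-DMa had the lowest estimate, -1.09, with an edgeR adjusted p of 0.05428. By edgeR 7 of the 8 members and 5365 of all 15374 genes had an unadjusted p under 0.05. In this zone replicate 1 held the highest cell sheet value of 6 members, among them 151 CPM of RT1-Da and 27.5 CPM of RT1-DMa. That library also had the highest macrophage sum of its group (1076 CPM against 320 to 569 CPM), 39206 CPM of fibroblast markers and the lowest cardiomyocyte sum, 14738 CPM. Without it the count was 6. Without cell sheet replicates 2, 3 or 5 or MI replicates 3 or 4 the count was 0, and without cell sheet replicate 6 it was 1. How many of all genes were called with a library left out is not reported here, so these counts cannot be set against that number. A single fit of all 9 groups called 0, and DESeq2 called 5. Of all genes these called 2594 and 3815 in either direction.

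Against sham without replicate 5, cell sheet hearts had 7 of 8 members higher in both the infarct and the border zone, against 0 in the remote zone. The shares of all genes called higher were 36.4% and 32.9% in the infarct and border zones, and 0.111% were called in either direction in the remote zone. RT1-Da was 5.23-fold higher in the infarct zone (2.39 ± 0.52) and 2.28-fold higher in the border zone (1.19 ± 0.23), and RT1-DMa 6.06-fold and 3.10-fold. Ciita was 4.33-fold and 2.78-fold higher. Cd74 differed by 0.51 and -0.23 and passed in neither. Groups did not overlap for 3 members in the infarct zone, where 26% of all genes were higher without overlap, and for 7 in the border zone, where 22.8% were. In the remote zone the estimates ran from -0.09 to 0.75, with RT1-DMa highest (interval -0.11 to 1.61), and 0 members had an unadjusted p under 0.05 or were called by DESeq2. Of all 15302 genes, 2267 had an unadjusted p under 0.05 by edgeR there. With all shams 0 of 8 were called in each zone by edgeR. DESeq2 also called 0, again with a member lacking an adjusted p counted as not called. By edgeR 0, 1 and 6 members had an unadjusted p under 0.05 in the infarct, border and remote zones. So did 9900 of 15687, 8335 of 15960 and 1520 of 15157 of all genes tested. The estimates ran from -2.78 to 0.64, and 6, 8 and 8 of them were negative. In those fits 57.9%, 43.6% and 0.0066% of all genes were called.

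Zones were compared within hearts, since each animal gave all 3 pieces. In untreated MI, 7 of 8 members were higher in the infarct than in the remote zone, and 18.3% of all genes were. RT1-Da was higher in 6 of 6 hearts, by 1.24- to 3.92-fold (0.81 ± 0.20, edgeR with the animal as a block, adjusted p = 0.01849), and RT1-DMa by 1.51- to 4.98-fold (1.12 ± 0.20). Cd74 was higher in 6 of 6 hearts too, by 1.06- to 1.81-fold, but at 0.30 it was not past the threshold (edgeR adjusted p = 0.1305). In the border zone 0 members were called against the remote zone with the block, where 0% of all genes were called. There, 7 members and 5943 of all 15738 genes had an unadjusted p under 0.05 by edgeR. DESeq2 and the fit without the block each called 7, where they called 4651 and 3409 of all genes in either direction. RT1-Da was higher in the border than in the remote zone in 6 of 6 MI hearts, between 1.16-fold in replicate 6 and 7.37-fold in replicate 2.

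With the cell sheet, 7 of 8 members were higher than in the remote zone both in the infarct and in the border zone, and 31.5% and 29.2% of all genes were. RT1-Da in the infarct zone was higher in 5 of 6 hearts, from 0.854 times the remote value in replicate 1 to 11.6 times in replicate 2 (1.91 ± 0.59, edgeR adjusted p = 0.02547). In the border zone it was higher in 6 of 6 hearts, by 1.06- to 4.23-fold (1.19 ± 0.27, edgeR adjusted p = 0.008174). The infarct zone count was 2, 3 and 1 without replicates 2, 3 and 5, in fits for which the number of all genes called is not reported here. Cd74 was higher in the border than in the remote zone in 1 of 6 hearts and did not pass in either comparison.

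Sham hearts showed small zone differences. In both the infarct and the border zone 4 of 8 members were higher than in the remote zone, and 15.9% and 12.7% of all genes were. RT1-Db1 had the largest of them, at 0.40 ± 0.07 and 0.43 ± 0.10, and was higher in 6 of 6 hearts in each zone. Without replicate 5 the counts were 3 and 1, with 14.1% and 9.15% of all genes. The infarct zone count was 2 without replicate 1, 2, 3 or 4, and the border zone count was 1 without replicate 1, 2 or 4. The number of all genes called in these last fits is not reported here.

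**Figure D4:**
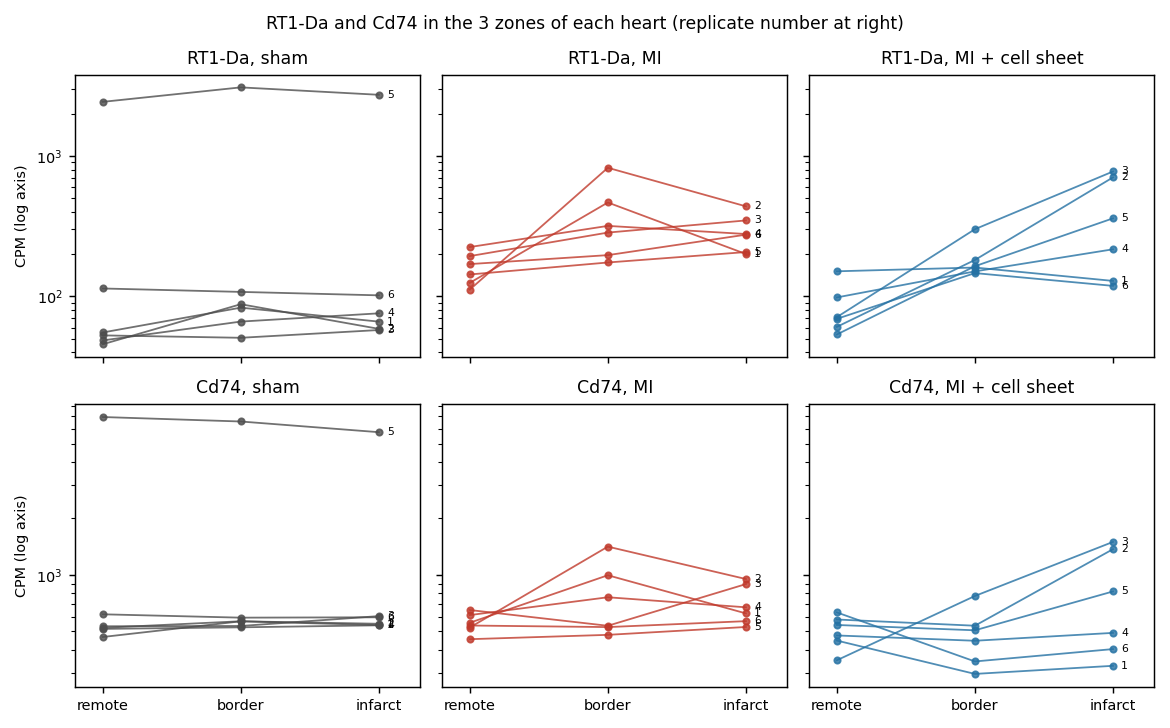
RT1-Da (top) and Cd74 (bottom) in CPM on a log axis in the remote, border and infarct zones, with a line for each of the 6 hearts of a treatment and its replicate number at the right. RT1-Da is higher in the infarct than in the remote zone in 6 of 6 MI hearts and 5 of 6 cell sheet hearts, and sham replicate 5 is far above the other shams in all zones.

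The effect of MI was more positive in the infarct than in the remote zone for 6 of 8 members, by the interaction term of a fit blocked on the animal, while 13.6% of all genes had such a positive difference. RT1-DMa had 0.82 ± 0.24, RT1-Ba 0.76 ± 0.20, Ciita 0.71 ± 0.19, RT1-DMb 0.70 ± 0.20, RT1-Bb 0.69 ± 0.19 and RT1-Db1 0.67 ± 0.20 on the log2 scale, with edgeR adjusted p from 0.01218 to 0.0244. RT1-Da, at 0.60, had an adjusted p of 0.07335 by edgeR, and Cd74, at 0.28, one of 0.2301. Without sham replicate 5 the count was also 6, with 11.3% of all genes. On that base it was 1 when sham replicate 3 or 6 was left out as well, 2 for sham replicate 1, 2 or 4 and 3 for MI replicate 3. The number of all genes called in these fits with a further animal left out is not reported here. Without the animal as a block the count of members was 0 over all libraries, where 1431 of all genes were called in either direction. Between border and remote zones 0 members differed in the effect of MI, with 4 at an unadjusted p under 0.05 (3 without sham replicate 5), and 0 differed in the effect of the cell sheet in either zone, with 0 at an unadjusted p under 0.05. Of all genes tested, 3995 of 16475 had such a p for MI (3738 of 16575 without sham replicate 5). For the cell sheet 4190 of 16902 (infarct) and 3430 of 16784 (border) did. In these fits 0% of all genes were called by edgeR, and DESeq2 was not run on them.

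The other genes of the pathway came from lists fixed by name, and counts and values for MI against sham are without sham replicate 5 unless said otherwise. Beside them, 34.1%, 31.9% and 23.7% of all genes were higher and 30.7%, 28.9% and 22.8% lower in the infarct, border and remote zones. The endosomal proteases and the reductase that ready antigen and cut the invariant chain also rose in MI. Of 9 such genes 8, 8 and 7 were higher in the infarct, border and remote zones, with a median of 2.03, 1.80 and 0.77 on the log2 scale. Cathepsin S (Ctss), which makes the last cuts in the invariant chain, differed by 2.84, 2.62 and 1.95 in the same order of zones. The thiol reductase Ifi30 differed by 2.09, 1.92 and 1.05. The signal peptide peptidase Sppl2a, which clears the stub of the invariant chain, was not past the threshold in any zone (0.06, 0.18 and 0.20).

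Among genes for turnover and sorting of class II, Marchf1, the ubiquitin ligase that removes class II from the surface, was higher in all 3 zones of MI, by 3.62, 3.20 and 2.23, and the tetraspanin Cd82 by 1.79, 1.78 and 0.94. Of the 6 genes, 4, 4 and 5 were higher in the infarct, border and remote zones. In the border zone Marchf1 was lower with the cell sheet than in MI (-0.94, edgeR adjusted p = 0.03919).

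Among 11 transcription factors known to act with CIITA or above it, 5, 6 and 5 were higher and 3, 2 and 3 lower in MI in the infarct, border and remote zones. The lower counts are near the share of all genes that were lower. The myeloid factors Spi1 (2.63, 2.28 and 1.38) and Irf8 (1.96, 1.90 and 1.09) were among those that rose. Of the RFX subunits, Rfx5 was higher in infarct and border (0.59 and 0.53) and Rfxank lower in all 3 zones (-0.69, -0.72 and -0.43), while Rfxap did not pass. The NF-Y subunit Nfya was higher (0.56, 0.55 and 0.28) and Nfyc lower (-0.80, -0.66 and -0.52) in all 3 zones, and Nfyb was lower in the infarct zone (-0.54).

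On the interferon gamma axis not all genes are reported here, and no count over the list is given. In the infarct, border and remote zones of MI the receptor subunit Ifngr1 rose by 1.13, 0.99 and 0.73 and Jak2 by 1.22, 1.48 and 0.89, while Jak1 did not pass (0.14, 0.18 and -0.17). Ifng itself did not pass the filter on low counts, at no more than 0.240 CPM in MI infarct zones. With the cell sheet, Ifngr1 was lower than in MI in the border zone (-0.56, edgeR adjusted p = 0.01231) and the remote zone (-0.57, edgeR adjusted p = 0.02711), and Ifngr2 was lower in the remote zone (-0.36, edgeR adjusted p = 0.03124).

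Of the genes for contact with CD4 T cells, 6 of 9 tested were higher in the MI infarct zone and 2 lower. These numbers were 6 of 9 and 1 for border zones, and 4 of 8 and 0 for remote zones. The co-stimulatory ligands Cd80 (2.42, 1.85 and 1.16) and Cd86 (2.18, 1.81 and 1.78) were higher in all 3 zones, as was Cd40 (0.55, 0.78 and 0.58). Cd4, which rat macrophages also carry, was higher by 1.45, 1.43 and 1.14. The inhibitory ligand Pdcd1lg2 was lower in the infarct and border zones (-1.51 and -1.54), and Cd274, the other ligand of the same receptor, in the infarct zone (-0.94). With the cell sheet, Cd40 (-0.92), Cd86 (-0.70) and Ctla4 (-1.15) were lower than in MI in the border zone.

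Of 14 class I presentation genes, 10, 9 and 7 were higher in MI in the infarct, border and remote zones, with a median of 0.41, 0.60 and 0.25. B2m, the class I light chain, was not past the threshold in the infarct (0.02) and border zones (0.32) and was higher in the remote zone (0.38). With the cell sheet it was lower than in MI in the border (-0.66, edgeR adjusted p = 0.02233) and the remote zone (-0.48, edgeR adjusted p = 0.03824). The further class II chains summed to at most 20.6 CPM in MI libraries, and the 2 of 4 that could be tested, RT1-DOa and RT1-DOb, were both higher in the MI infarct zone (1.19 and 1.95) and border zone (1.38 and 1.32).

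Markers of cells that can carry class II were counted in the same comparisons, beside the same shares of all genes. All 10 macrophage markers were higher in MI in each zone, with a median of 1.92, 1.99 and 1.53, and they summed to 1320 to 2387 CPM in MI infarct zones against 332 to 563 CPM in sham without replicate 5. Of 10 dendritic cell markers 7 (of 9 tested) were higher in both the infarct and the border zone and 2 (of 8 tested) in the remote zone, while Zbtb46 was lower in the border (-0.46) and the remote zone (-0.34), and the markers summed to 174 to 253 CPM in the infarct zone against 75.8 to 112 CPM. B cell markers stayed at 19.6 CPM or less in sum in the MI infarct zones, with 1 of 3 tested higher there. Of the T cell markers 6 of 7, 7 of 7 and 1 of 5 tested were higher, and they summed to 29.6 to 98.3 CPM in MI infarct zones against 2.54 to 11.1 CPM. Of 6 endothelial markers 0 were higher and 1, 3 and 1 lower in the infarct, border and remote zones, and 6 of 6 cardiomyocyte markers were lower in each zone. In the remote zone the dendritic cell and T cell counts, like the B cell count of the infarct zone, are close to or under the share of all genes called higher. The part of these cell populations in the class II values was not tested.

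With all sham libraries in the fit, most of these counts against sham were smaller by edgeR. Of all genes, 49.9%, 41.7% and 25.8% were called in either direction in the infarct, border and remote zones. The shares higher and lower alone are not reported here, so the counts below cannot be set against them. In the same order of zones 5, 5 and 4 of 9 endosomal genes, 2, 1 and 1 of 6 turnover genes, 2, 1 and 0 of 14 class I genes and 5, 5 and 2 of 10 macrophage markers were then higher in MI. Among the regulators 0 were higher and 3, 2 and 2 lower, and among the genes for contact with CD4 T cells 0 were higher and 3, 1 and 0 lower. Of the dendritic cell, B cell and T cell markers and the further class II chains 0 were higher in any zone. The cardiomyocyte markers were still lower, 6, 6 and 4 of 6. DESeq2 was not applied to the lists.

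Between cell sheet and untreated MI, in the border zone 0 of 10 macrophage markers were called and their sums overlapped (670 to 3294 CPM against 1118 to 2710 CPM), while 3 of 8 T cell markers were lower (15.2 to 47.2 CPM in sum against 15.6 to 133 CPM). In the remote zone 2 of 10 macrophage markers were lower, with a median of -0.87 over the list. The list summed there to 320 to 1076 CPM against 591 to 1235 CPM. Beside these counts, the share of all genes called lower with the cell sheet was 9.48% (border) and 6.79% (remote). Cell sheet replicate 3 had the lowest macrophage sum of its group in the border zone, 670 CPM, and the highest Cd74, 773 CPM.

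Across the 54 libraries, on deviations from the 9 group means of log2 CPM, the 5 genes most like Cd74 among 14848 were RT1-Db1 (Pearson r = 0.97), RT1-Bb (0.97), RT1-Ba (0.96), RT1-Da (0.96) and Ciita (0.95), with RT1-DMb at rank 21 and RT1-DMa at rank 100. Outside the members the 10 most like Cd74 included B2m (0.95), Nlrc5 (0.94), RT1-CE5, Psmb9, Igtp, Irf1, RT1-CE16 and RT1-A1 (0.93). Nlrc5 is the transactivator of class I genes, Psmb9 a subunit of the immunoproteasome and Irf1 an interferon-induced transcription factor. The libraries share animals and depth, and sham replicate 5 lies far from the rest. Without its 3 libraries the same 5 members again ranked first among 14820 genes, at 0.77 to 0.84, RT1-DMb ranked 22 and RT1-DMa 222, and B2m (0.76), Nlrc5 (0.73) and RT1-CE5 stayed among the 10 outside the members. On that base the 4 chains correlated with each other at 0.98 to 0.99 and with RT1-DMa at 0.77 to 0.81.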

How the data were processed

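Poly(A) RNA of 54 left ventricular samples was sequenced as paired ends. The authors deposited a table of raw read counts per gene for each library, aligned with STAR 2.5.4 to mRatBN7.2 with Annotation Release 108 per the labels and the study's methods. The counting tool and its strand setting are not given in the sources used here. The 5 summary lines of each table, 17.0% to 42.8% of its total, were left out, which left 12699204 to 23397754 counts per library.

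Counts were tested with edgeR 4.0.16 (R 4.3.3): TMM factors, filterByExpr, the quasi-likelihood F test and Benjamini-Hochberg adjustment over all genes tested, with a threshold of 0.05. Each of the 9 comparisons within a zone used the 12 libraries of its pair of groups. Zones, and differences of a treatment effect between zones, were compared with the animal as a block, since the pieces came from the same hearts. Standard errors are the log2 fold change divided by the root of F. CPM used TMM factors over 54 libraries, with 0.1 added before log2. Cd74 relative to the macrophage markers was tested by exact permutation, 2-sided, adjusted over 9 comparisons. The fits were tested on simulated data. Alternatives were DESeq2 1.42.0, library size without TMM, other filters, the block, a single fit of 9 groups, other marker lists and leaving out libraries. A member without an adjusted p in an alternative counted as not called.

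The 8 genes and the lists were chosen with earlier results of these data known. All 8 genes are named, with list genes that passed or were most abundant in their list and the 10 genes most like Cd74, of which some are not reported here. Sppl2a, Rfxap, Ifng, Cd3e and Sftpc are named after their values were seen, and leaving out sham replicate 5 or the libraries with lung RNA was also decided after seeing the data. P-values and intervals measure the spread between these libraries only. Promoter windows are RefSeq sequences of GRCr8.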

Additional observations from a re-analysis of the deposited data

Results flagged for a closer look

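For 31 of 72 sets of 6 libraries (8 genes in 9 groups), the highest library lay far from the other 5 by Dixon's criterion. Chance alone meets it in about 1 of 20 independent sets of normal values. These sets share hearts and correlated genes, and CPM was used without log, so that rate does not hold for them. Sham replicate 5 accounts for 24 of them, all 8 genes in all 3 zones. In the remote, border and infarct zones, in that order, it held 6950, 6580 and 5770 CPM of Cd74, 1600, 1900 and 1790 CPM of RT1-Ba and 2370, 3100 and 2580 CPM of RT1-Bb. RT1-Da was at 2430, 3070 and 2720 CPM and RT1-Db1 at 1590, 2300 and 2060 CPM. RT1-DMa was at 164, 227 and 186 CPM, RT1-DMb at 364, 510 and 443 CPM and Ciita at 230, 291 and 256 CPM.

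The other 7 sets were all border zones of infarcted hearts. Cell sheet replicate 3 was high for RT1-Ba (194 CPM), RT1-Bb (279 CPM), RT1-Da (301 CPM) and RT1-Db1 (187 CPM), and it had the lowest macrophage marker sum of its group. Cell sheet replicate 1, the library with almost no cardiomyocyte RNA, was high for RT1-DMa (37.2 CPM). Untreated MI replicate 2 was high for RT1-DMa (99.4 CPM) and Ciita (49.2 CPM).

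The effect of MI differed between the infarct and the remote zone, by a test of the difference itself, for RT1-Ba (0.7558 on the log2 scale), RT1-Bb (0.6874), RT1-Db1 (0.6741), RT1-DMa (0.8185), RT1-DMb (0.7045) and Ciita (0.7139). Without the animal as a block 0 members passed, and without sham replicate 5, with the block, 6 did.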

How the results depend on the processing

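The choice that moved most counts was sham replicate 5. With it, 0 members were called for untreated MI or cell sheet against sham in any zone. Leaving out 1 library at a time gave 0 to 7 for untreated MI in each zone and for the cell sheet in the infarct and border zones, the 7 being without sham replicate 5, and 0 for the cell sheet in the remote zone. With it the estimates also turned sign: of 8 members 6, 7 and 8 were negative for untreated MI and 6, 8 and 8 for the cell sheet in the 3 zones (infarct, border, remote), while without it 0, 0 and 0 and 0, 1 and 1 were. On the base without it these counts were 7 for every further library left out, and 0 in the remote zone of the cell sheet.

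Animals of different treatments share only a number. Deviations of same-numbered libraries correlated at -0.734 to 0.611, with at most 3 of 6 pairs over 0.1. With that number as a replicate block the count was 1 for untreated MI against sham in the infarct zone over all libraries, where 7570 of all genes were called. For cell sheet against untreated MI in the remote zone the count was 0, where 2 genes of the whole table passed. Without the animal as a block, sham hearts had 0 members in the infarct and 0 in the border zone, also without replicate 5, MI hearts had 7 in the border zone, and the difference of the MI effect between infarct and remote zone had 0 (1 without sham replicate 5). Of all genes, 3409 were called in either direction in that border zone fit of MI hearts. In the sham hearts 1081 (infarct) and 307 (border) of all genes were called without the block, and 3387 and 2180 without replicate 5. For the difference of the MI effect 1431 were called, and 3044 without sham replicate 5.

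DESeq2 called 7 members in the border against the remote zone of MI hearts, 5 for cell sheet against untreated MI in the remote zone and 3 in the border zone of shams without replicate 5, where no filter on low counts gave 4. Of all genes DESeq2 called 4651, 3815 and 2566 in these fits, in either direction, and the fit with no filter called 3407. Library size without TMM factors gave 1 in the infarct zone of those shams, where 4403 of all genes were called in either direction. A single fit of 9 groups gave 0 for cell sheet against untreated MI in both the border and the remote zone, and 1, lower, for cell sheet against sham in the border zone over all libraries. In the same order it called 3127, 2594 and 8371 of all genes in either direction. Without the libraries with lung RNA the border zone count for the cell sheet against untreated MI was 1, where 2208 of all genes were called. The cause of these changes was not tested.

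Leaving out 1 library or animal gave 2 to 5 for cell sheet against untreated MI in the border zone and 0 to 6 in the remote zone, 2 to 5 and 1 to 5 for the infarct and border zones of sham hearts (1 to 4 and 0 to 5 without replicate 5), 1 to 7 for the infarct zone of cell sheet hearts, and 1 to 6 for the difference of the MI effect between infarct and remote zone without sham replicate 5. Except without sham replicate 5 alone, how many of all genes such fits called, here and above, is not reported here. Most of these counts therefore cannot be set against that number. Cd74 relative to the macrophage markers ran from -0.992 to -0.2504 for cell sheet against untreated MI in the border zone, from 0.6419 to 1.101 in the remote zone, and from -0.9966 to -0.5588 for cell sheet against sham in the remote zone.

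Apart from sham replicate 5, signs turned in the following estimates, none of which passed. For cell sheet against untreated MI in the infarct zone, the replicate block gave -0.0643 for RT1-Bb and -0.1359 for RT1-Db1, and RT1-DMa was 0.00735 with library size and 0.003284 with no filter. With 1 library left out, Cd74 ran from -0.04706 to 0.3671, RT1-Bb from -0.0768 to 0.4415, RT1-Db1 from -0.1352 to 0.35, RT1-DMa from -0.2197 to 0.1796 and RT1-DMb from -0.2292 to 0.113. In the infarct zone of shams Cd74 was -0.001064 with library size and -0.1826 without the block (-0.006004 to 0.09319 with 1 animal left out), and RT1-DMb -0.01722 with library size (-0.04942 to 0.06422). In their border zone Cd74 was -0.06356 without the block (-0.007228 to 0.06207) and RT1-DMb ran from -0.01779 to 0.1249. With library size, Cd74 was 0.1007 in the border zone of cell sheet hearts (-0.3695 to 0.05811) and 0.06495 for cell sheet against sham in the border zone. For the difference of the cell sheet effect, Cd74 ran from -0.1387 to 0.3924 between infarct and remote zone. Between border and remote zone RT1-Ba was -0.1436, RT1-Da -0.04689 and Ciita -0.043 without the block, and with 1 animal left out RT1-Ba ran from -0.1556 to 0.339, RT1-Bb from -0.001134 to 0.481, RT1-Da from -0.01374 to 0.5216, RT1-Db1 from -0.354 to 0.1515 and Ciita from -0.02704 to 0.3979.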
